A study of Mus musculus with 12 samples.

Results

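Adipocyte nuclei of 2 mouse fat depots kept in the cold, mPRAT and iBAT, were compared to see which differences between the depots remained after cold exposure. The abbreviations usually stand for medial perirenal and interscapular brown adipose tissue, although the labels do not spell them out. A nucleus counted as an adipocyte when it held at least 3 UMIs (unique molecular identifiers, each standing for 1 captured transcript) in the sum of Adipoq, Plin1, Plin4, Lipe, Cidec and Acsl1, and when that sum was above the sum of Flt1, Ptprb, Lama2, Dcn, Mrc1 and Ptprc. Only nuclei in which at least 300 genes were seen, and whose mitochondrial share of UMIs did not exceed 10%, were considered. This selected 13448 nuclei, 2337 of 3781 kept nuclei in cold mPRAT and 11111 of 12674 in cold iBAT. The whole series holds 106898 kept nuclei, of which 74816 are adipocytes by the same rule, in 12 single-nucleus libraries.

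Both cold groups came from male C57BL/6J mice on normal chow housed at 4 °C for 3 days. The groups kept at a room temperature of 22 °C that serve as reference here were mPRAT and iBAT of the same age and of 1 and 2 months, also from male C57BL/6J mice on normal chow. For Ucp1 alone, 4 more libraries of such mice are quoted: iWAT (6 months) at 22 °C and after the same 3 days at 4 °C, and lPRAT (2 and 6 months) at 22 °C. The titles call the oldest mice 6 months old, whereas their age field says 16 weeks, and the titles are followed below. Each group is 1 library, and how many mice were pooled in it is not stated. No test between depots was therefore possible, no p-value is given, and intervals are exact 95% intervals that cover counting error only. A difference between depots cannot be told apart from a difference between these libraries.

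Brown adipocytes burn fatty acids to make heat. Their uncoupling protein Ucp1 lets protons back across the inner mitochondrial membrane without making ATP, and noradrenaline released in the cold drives the process through beta-adrenergic receptors, cyclic AMP and lipolysis. White adipocytes store triglyceride and secrete hormones such as leptin and adipsin. A depot can hold adipocytes of both kinds, and perirenal fat is known as a place where brown adipocytes take on a white appearance with age.

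The 6 genes used for selection are given as a description only, in CPM (counts per 1e+06 UMIs summed over the adipocyte nuclei of a library). Lipe, the hormone-sensitive lipase, stood at 984 CPM in cold mPRAT and 991 CPM in cold iBAT. Plin1, the main coat protein of the lipid droplet, stood at 964 and 1095 CPM, Cidec at 624 and 357 CPM, Adipoq at 81.2 and 40.1 CPM, Plin4 at 571 and 241 CPM and Acsl1 at 3575 and 3674 CPM. Their presence follows from the selection. Dgat2, which makes triglyceride, and Lpl, the lipoprotein lipase, were not used for it. They were chosen for the check of the label after their values were seen. Dgat2 stood at 636 and 609 CPM, against 29.2 and 60.4 CPM in immune nuclei of the same libraries, and Lpl at 1872 and 1763 CPM, against 169 and 361 CPM. At the selection threshold, 57 nuclei of cold mPRAT and 61 of cold iBAT had a sum of exactly 3, and their Ucp1 levels were 58.1 and 303.5 CPM. Just outside it, 94 and 81 nuclei had a sum of 2, with Ucp1 at 24.6 and 327 CPM.

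The cold mPRAT library stands apart. Of its barcodes with at least 300 genes, 66.04% exceeded the mitochondrial limit, against 1.139% in cold iBAT and 2.035% in mPRAT at 6 months and room temperature. The adipocyte nuclei held 12173281 UMIs in cold mPRAT and 82685795 in cold iBAT, with medians of 4540 and 6745 UMIs and a mean mitochondrial share of 1.781% and 0.2692%. Libraries of the series ranged from 5461133 to 87035783 UMIs in all, and the cold pair shared 46 barcodes, 0.4123% of the smaller set. RNA of other tissues was present in cold mPRAT adipocyte nuclei. A list of 7 urothelial or epithelial genes summed to 281 CPM there, 3.30 CPM in cold iBAT and 17.3 CPM in mPRAT at room temperature. In cold mPRAT, 6 of these 7 genes were at least 2-fold above cold iBAT, and 3 of the 7 were at 0 in cold iBAT. The same list reached 1656 CPM in cold mPRAT barcodes that failed both the mitochondrial limit and the adipocyte rule. Of 6 adrenal cortex genes, 5 passed 2-fold and the list summed to 155 and 6.57 CPM. The mesothelial list summed to 80.4 and 1.96 CPM, and the macrophage list to 66.9 and 20.7 CPM. Schwann cell genes summed to 119 and 17.97 CPM, of which 2 of 3 tested passed 2-fold in mPRAT, and stromal progenitor genes to 84.0 and 33.8 CPM. Endothelial genes summed to 25.9 and 30.6 CPM. Skeletal muscle genes went toward iBAT, at 2.71 CPM in cold mPRAT and 18.7 CPM in cold iBAT. The 1 muscle gene tested passed 2-fold in iBAT and was higher outside its adipocyte nuclei. The part of such RNA in each gene below was not tested, and counts are therefore also given for genes that were no higher outside the adipocyte nuclei of the library where they were high, a limit chosen after the data were seen. Outside means all barcodes of that library that failed the adipocyte rule, pooled within the mitochondrial limit and pooled over it, so a gene can pass this limit and still be higher in 1 cell type among them.

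Across all genes, more were called higher in mPRAT than in iBAT, by a margin that depended on the processing. A gene was tested when its mean over both libraries was at least 5 CPM, and called when it differed at least 2-fold on the scale of log2(CPM + 5), which understates the change of low genes. All log2 values below are mPRAT minus iBAT on that scale. In the cold, 818 of 10269 genes (7.97%) were called higher in mPRAT and 165 (1.61%) higher in iBAT. Among genes no higher outside the adipocyte nuclei the counts were 207 (2.02% of those tested) and 135 (1.31%). With no mitochondrial limit the counts were 1452 and 736 of 10587 tested genes. After subtraction of the level in immune nuclei they were 721 and 666 of only 4397 tested genes, so these counts do not share a base with the others. The subtraction also takes away what immune cells themselves express, so it is not a measure of background for such genes. The median over all tested genes was 0.05, and 4536 of the 10269 had a log2 ratio below 0. Gene lists are read against these shares. A member could pass the filter through the depot where it is high, so the counts over a list describe the list and do not show that it stands out.

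**Figure D1:**
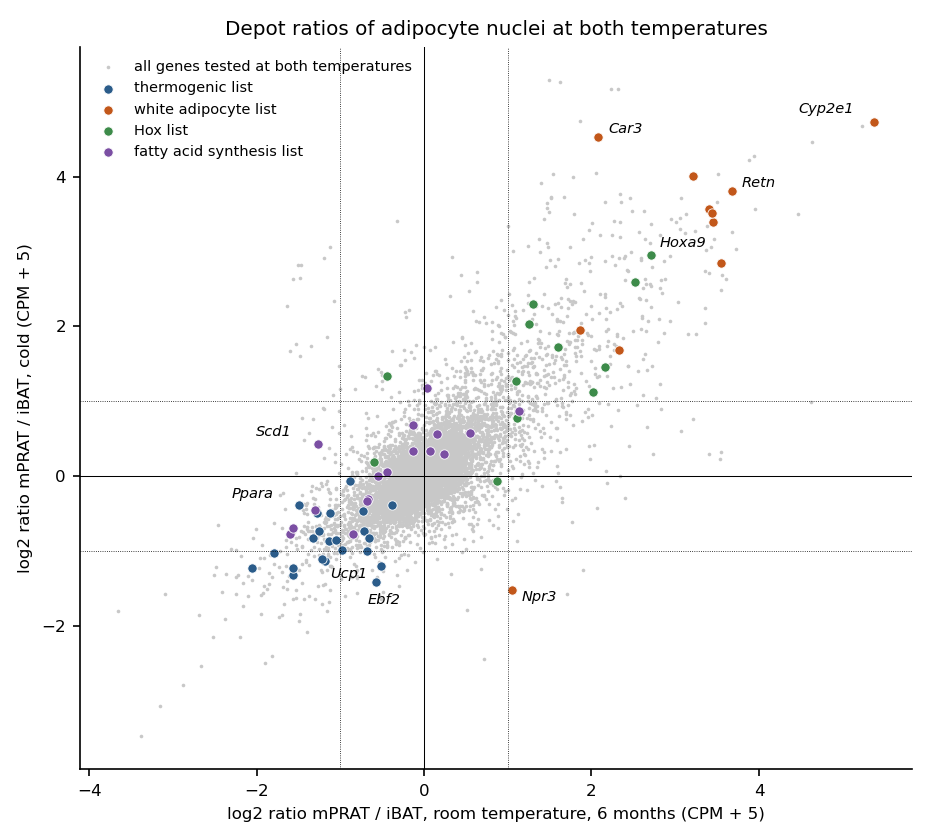
Each point is a gene, with the log2 ratio of mPRAT over iBAT adipocyte nuclei at room temperature (6 months) on the horizontal axis and in the cold on the vertical axis, both of CPM + 5. Most genes lie along the diagonal (r = 0.74 over 9704 genes), white adipocyte genes at the upper right and thermogenic genes at the lower left.

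Genes of the thermogenic program were lower in cold mPRAT than in cold iBAT, in the nuclei within the mitochondrial limit mostly by less than 2-fold and less than at room temperature. Of 26 listed members, 23 passed the filter, and all 23 had a log2 ratio below 0, with a median of -0.87. Of all tested genes 4536 of 10269 were below 0. At least 2-fold higher in iBAT were 10 of the 23, against 1.61% of all genes, and none was so in mPRAT. With no mitochondrial limit the count was 22 and the median -1.58, so both rest on that limit. The count was 7 at 2000 UMIs per nucleus and also after subtraction of the level in immune nuclei. The 3 members under the filter, Eva1a, Fgf21 and Gpr3, were at or below 3.12 CPM in both depots. At room temperature 13 of 22 tested members were past 2-fold in iBAT, with a median of -1.13. The gap was nearer to 0 in the cold for 15 of the 22 members tested at both temperatures, against 50.74% of all genes.

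Ucp1 (chr8:83290352-83298452 on GRCm38, plus strand, protein coding) stood at 671 CPM in cold mPRAT and 1454 CPM in cold iBAT. The iBAT level was 2.17-fold higher (2.12 to 2.22). At room temperature and 6 months the levels were 180 and 425 CPM, so cold mPRAT was above iBAT at room temperature while the log2 ratio between the depots was -1.22 there and -1.11 in the cold. With no mitochondrial limit the cold value was -1.93, and after subtraction of the level in immune nuclei it was -0.96, short of 2-fold. In iWAT of 6 months, usually short for inguinal white adipose tissue, Ucp1 stood at 0.716 CPM at room temperature and 29.97 CPM in the cold, and in lPRAT at 0 and 0.117 CPM at 2 and 6 months. Ppargc1a, the coactivator of mitochondrial biogenesis that beta-adrenergic signals induce, stood at 1404 CPM in cold mPRAT and 1465 CPM in cold iBAT, where it had been 588 and 1091 CPM at room temperature. The depots thus differed by 1.04-fold (1.03 to 1.06) in the cold. Ppara, the nuclear receptor that drives fatty acid oxidation genes, stood at 1713 and 2251 CPM, and before cold at 1696 and 4801 CPM. Its gap was smaller in the cold, where the iBAT level was lower and that of mPRAT nearly the same.

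Other thermogenic members were also past 2-fold in cold iBAT. Bmp8b, a secreted factor that raises the response of brown fat to noradrenaline, stood at 4.11 CPM in cold mPRAT and 34.5 CPM in cold iBAT (8.40-fold, 6.35 to 11.3), and below 1 CPM in both at room temperature. Ebf2, a transcription factor of brown fat identity, stood at 645 and 1729 CPM (2.68-fold, 2.62 to 2.74), a wider gap than the 1374 and 2050 CPM at room temperature. Esrrb and Esrrg, orphan nuclear receptors of mitochondrial genes, were 2.62-fold (2.31 to 2.99) and 2.20-fold (2.17 to 2.23) higher in cold iBAT. Elovl3, an elongase of very long fatty acids, stood at 98.7 and 203 CPM in the cold libraries, after 3.53 and 8.71 CPM at room temperature. Its log2 ratio in the cold was -1.01, at the edge of the threshold. Acot11, Pank1, Slc27a2 and Adcy3 were between 2.05-fold and 2.55-fold higher in cold iBAT. Members short of 2-fold included Dio2, the deiodinase that activates thyroid hormone, at 167 and 219 CPM, and Cidea, a lipid droplet protein of brown fat, at 591 and 985 CPM. Prdm16, a determinant of brown fat, stood at 751 and 1501 CPM (2.00-fold, 1.96 to 2.04), at the edge of the threshold.

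**Figure D2:**
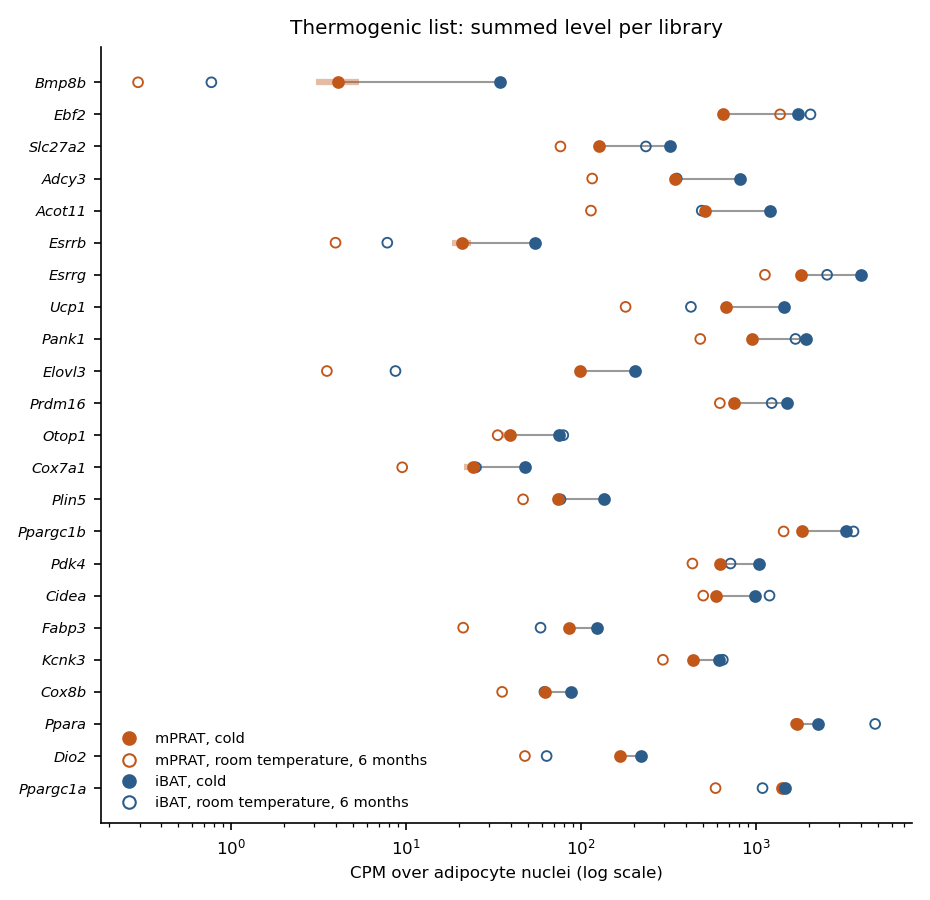
Levels of thermogenic genes in CPM (log axis) in the adipocyte nuclei of mPRAT and iBAT at room temperature and in the cold (filled symbols cold, open symbols room temperature), 1 library per point with 95% counting intervals for the cold values. Ucp1 reads 180 and 425 CPM at room temperature and 671 and 1454 CPM in the cold, and Ppargc1a meets at 1404 and 1465 CPM.

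Nuclei were next compared one by one, each reduced at random to 2000 UMIs, which left 2065 nuclei of cold mPRAT and 10940 of cold iBAT (272 and 171 were too shallow). A Ucp1 UMI was found in 53.9% (51.8 to 56.1%) of cold mPRAT nuclei and in 89.6% (89.0 to 90.2%) of cold iBAT nuclei. Without the reduction, the shares were 59.6% and 97.2%. At room temperature they were 19.8% and 45.7% at 2000 UMIs. Immune nuclei, a type that should lack Ucp1, held a Ucp1 UMI in 3.85% of 104 nuclei in cold mPRAT and in 29.1% of 182 in cold iBAT. Over all 255 and 326 immune nuclei, before the reduction and its limit on depth, the median depths were 1698 and 2166 UMIs, against 4540 and 6745 in all adipocyte nuclei. Both adipocyte shares lie well above those values.

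Cold mPRAT held a mixture that cold iBAT did not show to the same extent. Of its nuclei 46.1% had no Ucp1 UMI, 15.5% had 1, 13.6% had 2 and 24.8% had 3 or more, against 10.4%, 15.9%, 19.5% and 54.3% in cold iBAT. The sum of the other thermogenic genes followed these classes. It was 12.2 UMIs per nucleus in cold mPRAT nuclei with no Ucp1 UMI (12.004 to 12.449) and 34.3, 38.0 and 40.1 in those with 1, 2 and 3 or more. In cold iBAT the nuclei with no Ucp1 UMI already held 37.5 (37.2 to 37.9) and those with 3 or more held 44.9. In cold mPRAT the white adipocyte genes moved the opposite way, with 15.4 UMIs per nucleus at no Ucp1 UMI and 1.08 at 3 or more, where cold iBAT held 3.08 and 1.22. From the 10th to the 90th percentile of nuclei, the thermogenic sum ran from 2 through a median of 28 to 51 UMIs in cold mPRAT and from 31 through 44 to 58 in cold iBAT. Ucp1 and Cyp2e1, a white adipocyte gene, were found together in 4.31% (3.48 to 5.28%) of cold mPRAT nuclei, against the 17.2% that the product of their separate shares gives. In cold iBAT they were found together in 0.311%, against 0.942%, so observed over product was 0.251 in cold mPRAT and 0.330 in cold iBAT. Cyp2e1 alone had a UMI in 31.9% of adipocyte and 6.73% of immune nuclei in cold mPRAT, and in 1.05% and 1.10% in cold iBAT, where it is not above the background. Among cold mPRAT nuclei with 1, 2 and 3 or more Ucp1 UMIs, a Cyp2e1 UMI was found in 14.7%, 6.76% and 4.48%. The immune share of 6.73% (2.75 to 13.4%) lies below the first of these, near the second and above the third. The co-detected share in cold mPRAT is not read as expression of both genes in 1 nucleus, which was not tested. At room temperature mPRAT showed the same order of classes, with a thermogenic sum of 15.6 UMIs and a white sum of 16.6 at no Ucp1 UMI, and 47.4 and 3.99 at 3 or more. These splits are by Ucp1 itself and describe the nuclei.

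**Figure D3:**
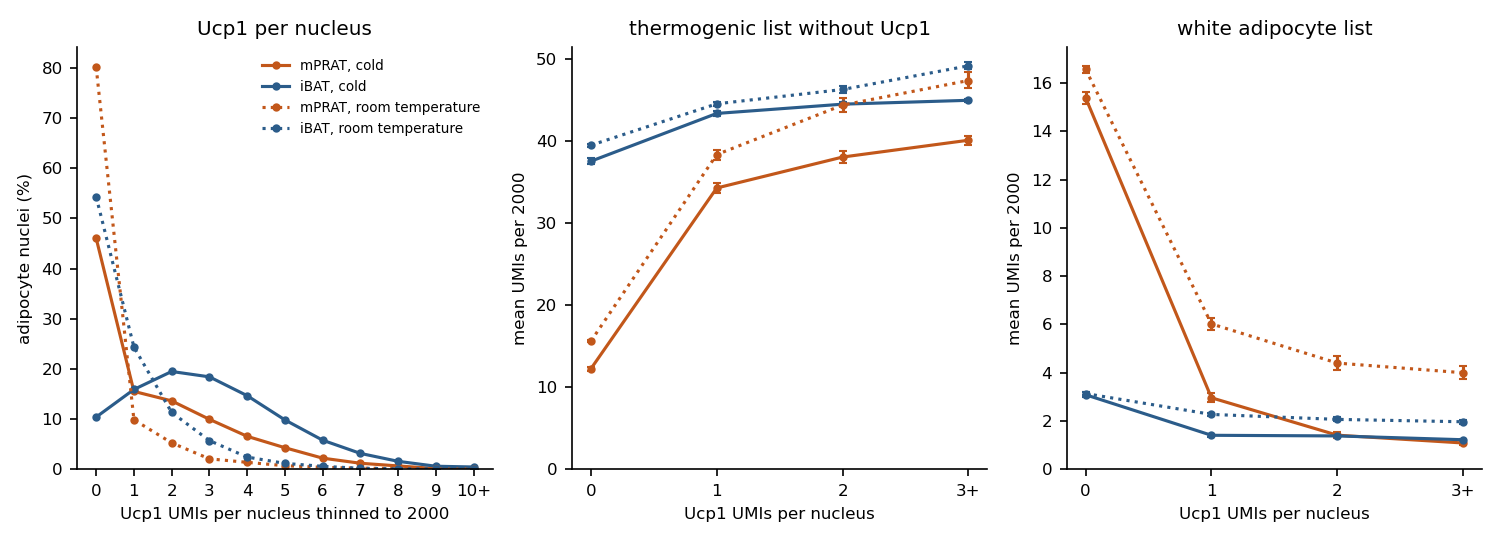
Adipocyte nuclei reduced to 2000 UMIs and grouped by their number of Ucp1 UMIs, showing the share of nuclei in percent and the mean UMIs per nucleus of thermogenic genes without Ucp1 and of white adipocyte genes, with 95% counting intervals. In cold mPRAT the thermogenic sum is 12.2 and the white sum 15.4 in nuclei with no Ucp1 UMI, and 40.1 and 1.08 in nuclei with 3 or more.

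Nuclei with a Ucp1 UMI were also compared alone, at 2000 UMIs each. Ucp1 chose these nuclei and the other thermogenic and white adipocyte genes varied with it, so the values in this subset are a description, and the smaller ratios of those lists are part of the choice. In the subset 345 of 9939 genes were at least 2-fold higher in mPRAT and 80 higher in iBAT, against 716 and 173 in all nuclei reduced to 2000 UMIs. The thermogenic median was -0.27 and 2 members, Bmp8b and Ebf2, passed 2-fold in iBAT. Cidea stood at 934 CPM in mPRAT and 996 CPM in iBAT there, Elovl3 at 174 and 213 CPM, and Ppargc1a at 2103 and 1477 CPM. Over whole libraries, the share of nuclei with little thermogenic RNA and the level per nucleus both enter the ratio.

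Genes of oxidative metabolism were mostly slightly lower in cold mPRAT. All 31 listed respiratory chain and citrate cycle genes passed the filter and were below 0, none past 2-fold, with a median of -0.33 against -0.57 at room temperature. Of all tested genes 4536 of 10269 were below 0 in the cold. Cox10, which makes the heme of cytochrome oxidase, stood at 207 and 354 CPM in cold mPRAT and iBAT, Cyc1 of complex III at 62.9 and 110 CPM, and Cox4i1, a core subunit of complex IV, at 124 and 137 CPM. The gap was nearer to 0 in the cold for 25 of the 31, against 50.74% of all genes. In nuclei chosen by Ucp1 the median was -0.02. Of 22 fatty acid oxidation genes, none passed 2-fold, 18 were below 0 and the median was -0.29, against -0.59 before cold. With no mitochondrial limit the respiratory and fatty acid oxidation medians in the cold were -0.83 and -0.96, wider than at room temperature, so the narrower gap in the cold rests on that limit. Cpt1b, the muscle and brown fat form of the enzyme that commits fatty acids to mitochondria, stood at 439 and 697 CPM, and its partner carrier Slc25a20 at 458 and 762 CPM. Acaa1a, a peroxisomal thiolase, went the other way at 60.6 and 31.6 CPM.

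The ratios of fatty acid synthesis genes were mostly higher, toward mPRAT, in the cold pair than in the room temperature pair. Of 17 members tested at both temperatures, the ratio was higher in the cold for 16, against 57.71% of all genes, and their median was -0.44 at room temperature and 0.30 in the cold. Acly, which makes cytosolic acetyl-CoA, stood at 326 CPM in mPRAT and 814 CPM in iBAT at room temperature and at 1013 and 1392 CPM in the cold. Fasn, the fatty acid synthase, went from 321 and 957 CPM to 704 and 1140 CPM. Scd1, the stearoyl-CoA desaturase, went from 364 and 879 CPM to 687 and 507 CPM, which put mPRAT on top. Acss2, which activates acetate, stood at 1025 and 635 CPM in the cold and at 439 and 483 CPM before it. Called in mPRAT were 3 of 19, against 7.97% of all genes. Slc25a1, the citrate exporter of mitochondria, was one of them at 88.1 and 36.1 CPM (2.44-fold, 2.28 to 2.62). Its log2 ratio of 1.18 was 0.49 in nuclei chosen by Ucp1, 0.50 with no mitochondrial limit and 0.95 with a pseudocount of 20 CPM, short of 2-fold in each. The desaturases Fads1 and Fads2 were the others, and both were higher outside the adipocyte nuclei of cold mPRAT. The median of all tested members in the cold, 0.33, was -0.42 when no mitochondrial limit was set and -0.0067 over the 17 that passed the filter in nuclei with a Ucp1 UMI. The summed level of the list was lower in cold mPRAT, at 18326 against 22034 CPM, opposite in direction to the median.

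Past 2-fold in mPRAT were 1 of 16 glyceride synthesis genes and 2 of 14 tested lipid uptake genes, against 7.97% of all genes. The glyceride count lies near that share. In iBAT it was 1 lipid uptake gene, against 1.61% of all genes. Gpat3, an acyltransferase at the entry of triglyceride synthesis, stood at 250 CPM in cold mPRAT and 39.3 CPM in cold iBAT (6.37-fold, 6.06 to 6.69), and no other of the 16 glyceride genes passed 2-fold. In nuclei chosen by Ucp1 the log2 ratio of Gpat3 was 0.54 against 2.53 over all nuclei, and that of Slc27a1 was 0.78 against 1.84, both short of 2-fold there. Gpd1, which makes glycerol 3-phosphate, stood at 929 and 1829 CPM. The fatty acid transporters split: Slc27a1 stood at 770 and 211 CPM (3.64-fold, 3.55 to 3.74) and Slc27a2 at 127 and 325 CPM. Fabp5, a fatty acid binding protein, stood at 20.7 and 4.97 CPM, and its log2 ratio of 1.37 was 0 after subtraction of the immune nuclei's level. At room temperature Slc27a1 had stood at 528 and 383 CPM. Lpl, the lipase that draws fatty acids from lipoproteins, and Cd36, a fatty acid receptor, differed by 1.06-fold and 1.09-fold. Of 24 tested genes of glucose use, 22 were below 0, against 4536 of all 10269 tested genes. Hk1, a hexokinase, was called in iBAT at 14.6 and 77.9 CPM (5.33-fold, 4.59 to 6.22). Pkm, the pyruvate kinase of most tissues, stood at 380 and 671 CPM and the insulin-regulated transporter Slc2a4 at 119 and 171 CPM. Of 6 tested genes for other heat-producing cycles 2 were called in iBAT, of which only 1 was no higher outside its adipocyte nuclei. Ckb, a creatine kinase, stood at 18.9 and 70.0 CPM (3.70-fold, 3.25 to 4.25) and Ryr2, a calcium release channel, at 25.2 and 84.5 CPM. In nuclei chosen by Ucp1 the log2 ratio of Ckb was -1.01 and that of Ryr2 was -0.99, short of 2-fold.

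Of the adrenergic and lipolytic pathway, the receptor Adrb3 was slightly higher in cold mPRAT, the receptors Adrb1 and Adra1a were lower there, and the adenylyl cyclases differed in opposite directions. Adrb3, the main beta receptor of mouse adipocytes, stood at 415 CPM in cold mPRAT and 344 CPM in cold iBAT, after 541 and 280 CPM at room temperature. Adrb1 stood at 54.5 and 107 CPM and Adra1a at 761 and 1405 CPM. Gnas, the stimulatory G protein alpha subunit, stood at 877 and 2033 CPM (2.32-fold, 2.27 to 2.36). Of the adenylyl cyclases, Adcy3 stood at 344 and 813 CPM, while Adcy5 (chr16:35154877-35305738, plus strand) stood at 57.3 and 2.60 CPM, 22.1-fold higher in mPRAT (18.9 to 25.8). At room temperature Adcy5 stood at 274 and 16.0 CPM. Past 2-fold were 3 of the 21 tested members, 1 in mPRAT and 2 in iBAT, against 7.97% and 1.61% of all genes. In nuclei chosen by Ucp1 none of the 20 tested members was past 2-fold, with Gnas at -0.58 and Adcy3 at -0.59. Adcy5 was under the filter there, so it is not among the 20 and was not tested. The log2 ratio of Adcy5 was 3.04, and at its lowest over the alternative settings it was 0.96, short of 2-fold. Pnpla2, the first triglyceride lipase, stood at 145 and 175 CPM, and Pde3b, which breaks down cyclic AMP under insulin, at 2109 and 1234 CPM.

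Genes of white adipocytes were mostly higher in cold mPRAT. Of 15 members 11 passed the filter, and 10 of them were at least 2-fold higher in cold mPRAT, against 7.97% of all genes. The median was 3.52. In nuclei chosen by Ucp1, 7 of the 10 that passed the filter were past 2-fold in mPRAT and 1 in iBAT, with a median of 1.41. Of the 10 only Aldh1a1 was higher outside the adipocyte nuclei of cold mPRAT. At room temperature 13 of 14 tested members were past 2-fold in mPRAT. The 4 members under the filter in the cold were Agt, Mest, Sncg and Trpv1, all under 5 CPM in both depots.

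Cyp2e1 (chr7:140763739-140774987, plus strand), a cytochrome P450, stood at 437 CPM in cold mPRAT and 11.7 CPM in cold iBAT (37.4-fold, 35.0 to 40.2). Its share of cold iBAT nuclei was not above that of immune nuclei, so the size of this fold rests on a background level. Room temperature levels at 6 months were 629 and 10.3 CPM, and the log2 ratio was 5.38 there and 4.73 in the cold. Cfd, which encodes the serine protease adipsin, stood at 141 and 4.03 CPM (34.9-fold, 31.1 to 39.4), and Retn, the hormone resistin, at 131 and 4.68 CPM (27.9-fold, 24.97 to 31.3). Slc7a10, a neutral amino acid transporter known from white fat, stood at 303 and 24.4 CPM. Lep, the satiety hormone leptin, stood at 20.1 and 1.46 CPM (13.8-fold, 11.02 to 17.2), and at 105 and 25.2 CPM at room temperature. Nrip1, a corepressor of oxidative genes, stood at 587 and 180 CPM. In nuclei chosen by Ucp1 the log2 ratio of Nrip1 was 0.46, short of 2-fold. That of Lep was 0.42, but Lep was under the filter there. Igf1, a growth factor, stood at 263 and 17.6 CPM in adipocyte nuclei and at 335 CPM in immune nuclei of cold mPRAT. Its log2 ratio was 0 once the immune nuclei's level was subtracted, although it was no higher in the pooled barcodes outside the adipocyte rule. With the immune level above the adipocyte level, the subtraction leaves nothing, so this 0 does not show that the adipocyte level is background.

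Car3 (chr3:14863512-14872523, plus strand), an abundant carbonic anhydrase of fat, had a wider gap in the cold. It stood at 3538 and 833 CPM at room temperature and at 1814 and 73.7 CPM in the cold, so the ratio went from 2.08 to 4.53 on the log2 scale. Its UMI was found in 84.9% of mPRAT nuclei and 59.2% of iBAT nuclei at room temperature, and in 37.9% and 2.06% in the cold. Immune nuclei at the same depth held one in 26.9% and, of 19 nuclei, 21.1% (6.05 to 45.6%) at room temperature and in 6.73% and 1.10% (0.133 to 3.91%) in the cold, so the cold iBAT share is not above the background. In the younger pairs kept at room temperature, of 1 and 2 months, its log2 ratios were -0.04 and 0.71. Npr3 (chr15:11839896-11907287, minus strand), the clearance receptor for natriuretic peptides and a white adipocyte gene by the list, was the exception. It stood at 250 and 118 CPM at room temperature and at 145 and 425 CPM in the cold, 2.93-fold higher in iBAT (2.79 to 3.08). Among Ucp1-positive nuclei of the cold libraries Npr3 stood at 206 and 419 CPM. In the same subset Cyp2e1 stood at 66.0 and 2.91 CPM and Car3 at 172 and 13.2 CPM.

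**Figure D4:**
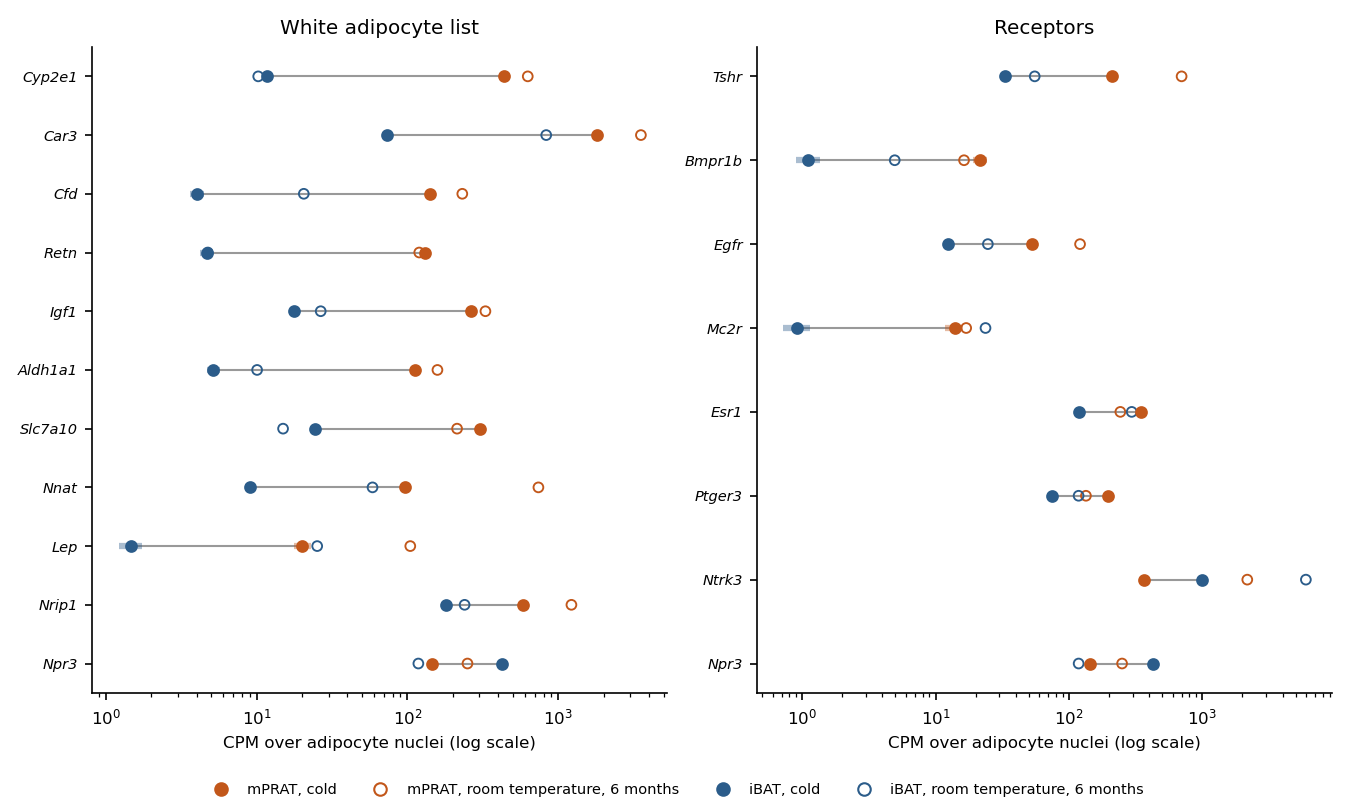
Levels in CPM (log axis) of white adipocyte genes and of 8 receptors named in the text in the adipocyte nuclei of mPRAT and iBAT at room temperature and in the cold (filled symbols cold, open symbols room temperature), 1 library per point with 95% counting intervals for the cold values. Cyp2e1, Cfd and Retn stay apart by over 10-fold, and Npr3 crosses from 250 and 118 CPM to 145 and 425 CPM.

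Promoters of 4 genes that carry the contrast are shown to let their base composition at the start site be read. The 60 bases before the RefSeq start (GRCm38.p6, plus strand, 5′ to 3′) are given for Ucp1 at chr8:83290288-83290347, Cyp2e1 at chr7:140763759-140763818, Cfd at chr10:79890793-79890852 and Retn at chr8:3655710-3655769, and capitals mark the motif TATAAA.
Ucp1: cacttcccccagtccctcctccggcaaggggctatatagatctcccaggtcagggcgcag
Cyp2e1: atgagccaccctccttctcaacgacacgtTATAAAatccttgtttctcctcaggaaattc
Cfd: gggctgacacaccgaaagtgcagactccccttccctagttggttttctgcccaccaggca
Retn: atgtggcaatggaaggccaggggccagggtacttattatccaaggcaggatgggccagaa
In Cyp2e1 the first base of TATAAA lies 31 bases before the RefSeq start. The gene interval printed above for Cyp2e1 comes from another annotation and begins before this window, which therefore lies inside that interval. The motif was searched on the gene's strand where it begins 40 to 16 bases before the start, and it was in 0.943% of the windows of tested genes and in 2.30% of all 27025 windows. It was in 2 of 14 white adipocyte windows and in 3 of 21 thermogenic windows (Dio2, Fgf21 and Pank1), 14.3% of each. Among genes called in the cold it was in 2.23% of mPRAT and 3.2% of iBAT windows. The ratio of observed to expected CpG, over 250 bases before to 50 after the start, was above 0.6 for 2 of 14 white adipocyte genes with a window (14.3%), 11 of 21 thermogenic genes (52.4%) and 18 of 20 respiratory genes (90%), against 76.7% of 8059 tested genes. Among genes called in the cold it was above 0.6 in 52.1% of 583 mPRAT windows and 52.0% of 125 iBAT windows, so the directions did not differ from each other in this respect. Both strands were searched for TNAAGGTCA, a motif of estrogen-related receptors, which none of the 21 thermogenic windows held, against 0.658% of the windows of tested genes and 1.26% of all windows. A match describes letters and does not show a binding site.

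Secreted factors and receptors were mixed. Of 20 tested secreted factors 8 were past 2-fold in mPRAT and 2 in iBAT, against 7.97% and 1.61% of all genes. Of the 8, 6 were no higher outside, and Lep, Retn, Cfd and Igf1 are also on the white adipocyte list. Beside Bmp8b the iBAT gene was Kng2, a kininogen, at 134 and 318 CPM. In nuclei chosen by Ucp1 the log2 ratio of Kng2 was -0.57, short of 2-fold. Lgals12, an adipocyte galectin, stood at 128 and 56.8 CPM and Rbp4, the retinol carrier, at 14.9 and 4.54 CPM. Among Ucp1-positive nuclei both were slightly lower in mPRAT (log2 ratios of -0.24 and -0.11), but Rbp4 was under the filter there. Of 28 tested receptors 7 were past 2-fold in mPRAT, 4 of them no higher outside, and 2 in iBAT, against the same shares of all genes. Bmpr1b, Egfr and Mc2r were the 3 that were higher outside. Tshr (chr12:91384563-91549808, plus strand), the thyrotropin receptor, stood at 209 and 33.2 CPM (6.30-fold, 5.97 to 6.65). Tshr had stood at 700 and 55.4 CPM at room temperature, and its log2 ratio of 2.49 was 0.78 in nuclei chosen by Ucp1. Esr1, the estrogen receptor alpha, stood at 344 and 120 CPM in the cold but at 243 and 296 CPM before it. Ptger3, a receptor for prostaglandin E2 that lowers cyclic AMP, stood at 196 and 74.2 CPM. Among Ucp1-positive nuclei the ratios of Esr1 and Ptger3 were both -0.13. Ntrk3, a neurotrophin receptor, stood at 368 and 998 CPM in the cold and at 2175 and 5980 CPM before it, so it was lower in both cold libraries, with a ratio of -1.43 against -1.46 before. Among Ucp1-positive nuclei the ratio of Ntrk3 was -0.71, short of 2-fold. Of 19 clock genes, 1 passed 2-fold, Npas2, at 14.9 and 2.94 CPM (log2 ratio 1.32). It was higher outside the adipocyte nuclei of cold mPRAT, and in nuclei with a Ucp1 UMI, where it was under the filter, its ratio was 0.12. It was also short of 2-fold at a limit of 5% mitochondrial UMIs (0.57), in the stricter gate (0.96), at 2000 UMIs per nucleus (0.91), without the highest doublet scores (0.88), after subtraction of the immune nuclei's level (0.88) and with a pseudocount of 20 CPM (0.60).

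Genes that record the position of a tissue along the body kept the depots apart. Hox genes lie in clusters and are active further back in the body the higher their number. Of 39 Hox genes 15 passed the filter, and 11 of these were at least 2-fold higher in cold mPRAT, against 7.97% of all genes. Of the 11, 8 were no higher outside its adipocyte nuclei. None was called in iBAT. Hoxa4, Hoxb4, Hoxc4 and Hoxa5 were short of 2-fold, Hoxc4 at 28.6 and 30.2 CPM, whereas Hoxa3 stood at 51.6 and 18.6 CPM (2.78-fold, 2.53 to 3.05). The log2 ratio of Hoxa3, 1.26, was 0.46 with no mitochondrial limit and 0.89 with a pseudocount of 20 CPM, short of 2-fold in each. Hoxb3, Hoxd3 and Hoxb6, the last at 23.0012 and 0.701 CPM, were the 3 called members that were higher outside. Hoxa7 stood at 43.7 and 6.95 CPM (6.28-fold, 5.57 to 7.08). Hoxa9 (chr6:52223100-52231089, minus strand) stood at 45.1 and 1.44 CPM (31.3-fold, 25.7 to 38.5) and Hoxc8 at 34.5 and 1.54 CPM (22.5-fold, 18.4 to 27.6). Hoxa10 stood at 15.4 CPM in cold mPRAT with a single UMI in cold iBAT (1270-fold, 225 to 50434), a fold that rests on a count under the floor of 3 UMIs. Hoxc9 stood at 11.5 CPM in cold mPRAT with no UMI in cold iBAT, at least 317-fold higher against a floor of 3 UMIs. Hoxc10, at 8.95 CPM, was at least 247-fold higher but under the filter, so it is not among the tested members. In all 3 pairs at room temperature Hoxa9 had a log2 ratio of at least 2.55, and in the cold it was 2.96. Among Ucp1-positive nuclei Hoxa9 stood at 42.6 and 1.12 CPM, and 12 of 15 Hox genes tested there were past 2-fold in mPRAT. These 15 are another set, with Hoxc10 and without Hoxd3.

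**Figure D5:**
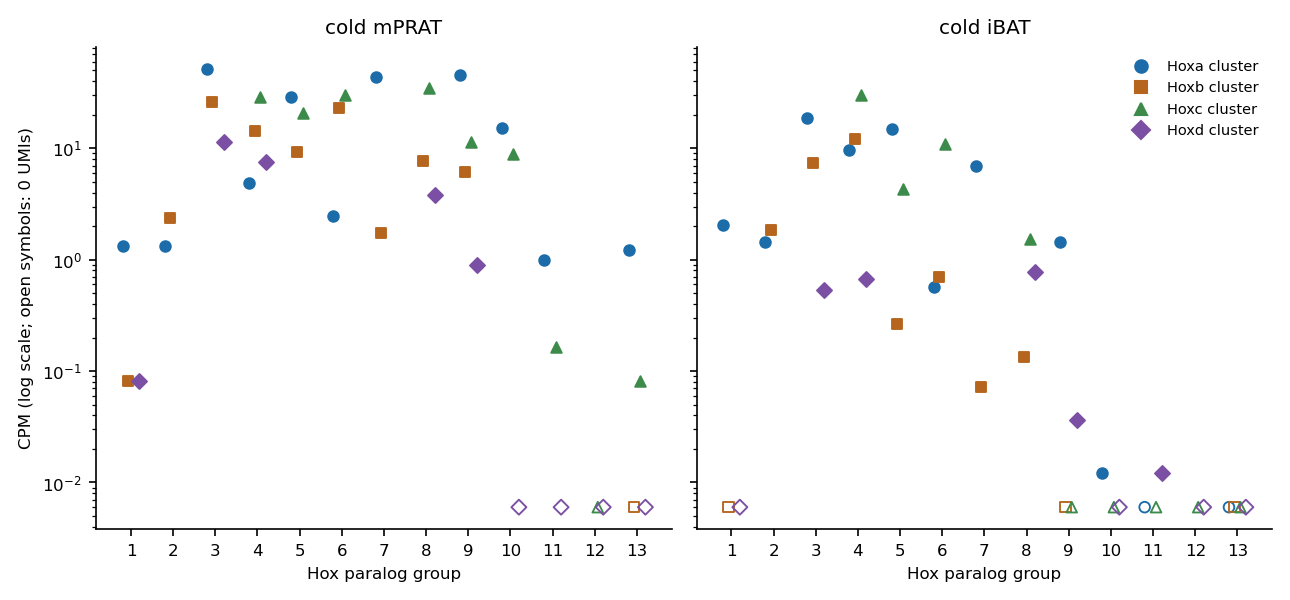
Hox genes in adipocyte nuclei of the cold libraries, with paralog group on the horizontal axis and CPM (log axis) on the vertical axis, mPRAT and iBAT in separate panels and the 4 Hox clusters in separate colours and symbols. Genes with no UMI are open symbols at the bottom, and Hoxa9 reads 45.1 and 1.44 CPM.

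Of 13 other positional regulators that passed the filter, 4 were called in mPRAT and 3 in iBAT, against 7.97% and 1.61% of all genes. All 7 were higher outside the adipocyte nuclei than inside. Zic1, a factor of the dorsal somite long used as a marker of interscapular brown fat, had no UMI in cold mPRAT and stood at 16.9 CPM in cold iBAT, at least 68.7-fold higher there. Lhx8 had 1 UMI in cold mPRAT, under the floor of 3 UMIs, and stood at 17.3 CPM in cold iBAT (211-fold, 37.8 to 8327). Tbx15 stood at 1.64 and 16.8 CPM. On the mPRAT side were Gata6 at 37.9 and 1.20 CPM, Tbx3 at 39.1 and 2.31 CPM, Tbx2 at 25.5 and 1.64 CPM and Nr2f2 at 43.2 and 18.8 CPM. Nr2f2 was near the threshold, with a log2 ratio of 1.02. It was short of 2-fold with a pseudocount of 20 CPM (0.71), TMM scaling (0.89), a limit of 5% mitochondrial UMIs (0.84), the stricter gate (0.88), 2000 UMIs per nucleus (0.92), without the highest doublet scores (0.93) and in nuclei with a Ucp1 UMI (0.84). After subtraction of the immune nuclei's level its ratio was -0.85.

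Of the 12 genes with the largest ratios in cold mPRAT, 8 were higher outside the adipocyte nuclei of that library. These were Gstm1 (325 and 3.40 CPM), S100a6 (210 and 0.568 CPM), Sh3gl2 (179 and 0.0968 CPM), Ankfn1 (195 and 0.532 CPM), Tmprss2 (131 and 0.0605 CPM), Eya4 (153 and 1.16 CPM), Sprr1a (123 CPM and no UMI) and the uroplakin Upk1b (89.5 and 0.0121 CPM). The other 4 were Cyp2e1, Car3, Olfr1033 and Prr16. Olfr1033, annotated as an olfactory receptor, stood at 122 and 0.726 CPM (168-fold, 130 to 222), and Prr16, a regulator of cell size, at 227 and 6.99 CPM (32.5-fold, 29.7 to 35.6). Among genes no higher outside, the largest 12 also included Cfd, Retn, Igf1, Gsta3, Adamts12, Atp2b4 and Fgf10. Gsta3, a glutathione transferase, stood at 80.0 and 1.49 CPM, and at 17.9 and 3.01 CPM before cold. Fgf10, a growth factor for adipocyte progenitors, stood at 149 and 8.55 CPM (17.4-fold, 16.0 to 19.1), after 353 and 11.2 CPM at room temperature.

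On the iBAT side, 3 of the 12 largest ratios, Zfhx4, Cacna1a and Lhx8, belonged to genes that were higher outside its adipocyte nuclei. Zfhx4, a homeodomain zinc finger gene, stood at 39.5 and 492 CPM in the cold mPRAT and iBAT adipocyte nuclei (12.4-fold, 11.4 to 13.6). Slc29a1 (chr17:45585200-45599606, minus strand), a nucleoside transporter, stood at 15.9 and 139 CPM (8.78-fold, 7.61 to 10.2), and Gmpr (chr13:45507444-45553800, plus strand), which turns GMP into IMP, at 154 and 923 CPM (6.00-fold, 5.73 to 6.28). Gmpr had stood at 14.9 and 122 CPM at room temperature, so it was higher in both cold libraries. Cpne5, a calcium-dependent membrane protein, stood at 3.37 and 48.8 CPM (14.5-fold, 10.7 to 20.2) and at 0.719 and 0.676 CPM at room temperature. Ankrd33b stood at 10.5 and 80.4 CPM and Chst8, a sulfotransferase, at 11.5 and 85.1 CPM, and these had been higher in mPRAT before cold, at 4.64 and 1.78 CPM and 28.4 and 15.3 CPM. The imprinted gene Peg3, the lipid transfer gene Pitpnc1, the splicing factor Rbfox1 and the kinase subunit Camk2b were between 4.53-fold and 8.47-fold higher in cold iBAT, as they had been in direction at room temperature. The log2 ratio of Pitpnc1 went from -2.15 to 0 after subtraction of the immune nuclei's level.

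The depot ratios of the cold pair were set beside those of the room temperature pair of 6 months, which shares no library with it. Across 9704 genes tested at both temperatures, the log2 ratios had r = 0.74 and rho = 0.62, a description over genes that are not independent. At room temperature 800 of 10476 genes (7.64%) were past 2-fold in mPRAT and 306 (2.92%) in iBAT. In the cold 404 of the 800 (50.5%) were still past 2-fold and 732 had the same sign, while 3 were past 2-fold the other way. Of the 306 iBAT genes 96 (31.4%) were still past 2-fold, 270 kept the sign and 15 were past 2-fold the other way. Under the filter in the cold, and so not callable there, were 214 of the 800 and 22 of the 306. The shares still past 2-fold thus count untested genes as lost, more so in mPRAT. With no mitochondrial limit 407 of 823 mPRAT genes and 193 of 301 iBAT genes were still past 2-fold, which turns the order of the depots, and after subtraction of the immune nuclei's level 274 of 863 and 264 of 1527 were. Read from the cold pair, 404 of its 818 mPRAT genes (49.4%) and 96 of its 165 iBAT genes (58.2%) were past 2-fold at room temperature. Of the 818, 173 were under the filter at room temperature, and of the 165, 19 were. Limited to genes no higher outside the adipocyte nuclei, 173 of 283 (61.1%) and 82 of 248 (33.1%) stayed past 2-fold in the cold, where 32 of the 283 and 19 of the 248 were under the filter. Of the 818 genes called in cold mPRAT, 695 were higher in mPRAT in all 3 room temperature pairs (1, 2 and 6 months) and 172 were past 2-fold in all 3. Of the 165 called in cold iBAT the counts were 130 and 31. The younger pairs also held RNA of other tissues in their adipocyte nuclei. At 1 and 2 months the skeletal muscle list summed to 509 and 2822 CPM in iBAT, and the kidney tubule list to 196 and 529 CPM in mPRAT. Whether a gene was higher outside the adipocyte nuclei was not examined in these libraries.

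Genes with a ratio of the same sign in all 4 pairs were ranked by the smallest of their 4 ratios, a rule that lets the ratios of a gene differ in size. Those of Cyp2e1 on the log2 scale were 2.62, 1.98 and 5.38 at 1, 2 and 6 months at room temperature and 4.73 in the cold. In mPRAT and no higher outside, a limit taken from the cold library only, these included Car5b, Cyp2e1, Fgf10, Hoxa9, Hoxc8, Olfr1033 and Trf. Trf, the iron carrier transferrin, stood at 71.0 and 3.01 CPM in the cold, and Car5b, a mitochondrial carbonic anhydrase, at 97.0 and 6.12 CPM. Without that limit, Hoxa9 and Olfr1033 were joined by Cers6, Cmip, Naaladl2, Ppm1h, Samd12 and Sh3gl2, all higher outside, of which Cmip stood at 185 and 23.3 CPM. In iBAT they were Zfhx4, Slc29a1, Cacna1a, Gmpr, Peg3, Ptgds, Sept9 and Lgr6. The log2 ratio of Zfhx4 was -3.25, -3.22 and -3.38 at 1, 2 and 6 months at room temperature and -3.48 in the cold. Lgr6, a receptor for R-spondins, stood at 284 and 877 CPM, Sept9, a septin, at 427 and 1543 CPM, and Ptgds, a prostaglandin D synthase, at 36.1 and 147 CPM. In nuclei chosen by Ucp1 the log2 ratio of Lgr6 was -0.78, short of 2-fold, and those of Sept9 and Ptgds were -1.16 and -1.18.

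Few genes crossed over. Past 2-fold in opposite directions at the 2 temperatures were 18 genes, of which 12 were mitochondrially encoded. The mitochondrial transcripts were higher in iBAT at room temperature and higher in mPRAT in the cold, as with mt-Co1 at 437 and 1003 CPM before and 2079 and 272 CPM after. Cold mPRAT is the library with the high mitochondrial share described above. The others were Npr3 and Vat1l, which were no higher outside the adipocyte nuclei, and Synpo2, Lars2, Map2k6 and Pik3ap1, which were higher outside in at least 1 of the 4 libraries. The largest shifts toward mPRAT over all genes were those of Gstm1, Krt7, Sprr1a, S100a6, Upk3a, Upk1b, Map2k6 and Krt19, all higher outside the adipocyte nuclei. Among genes no higher outside they included those of Vat1l, Car3, Lctl, Ube2ql1, Ofcc1, B3galt2 and Tmem132b. Lctl, a klotho family gene, stood at 134 and 226 CPM at room temperature and at 20.5 and 5.12 CPM in the cold. Several gaps were near 0 in the cold instead. Nnmt, which methylates nicotinamide, stood at 68.1 and 9.46 CPM at room temperature and at 59.5 and 59.4 CPM in the cold. Klf15, a transcription factor of fasting metabolism, went from 45.0 and 13.5 CPM to 57.6 and 48.0 CPM, and Lpgat1, an acyltransferase, from 401 and 149 CPM to 294 and 322 CPM. The largest shifts toward iBAT over all genes were those of Slc14a2, Bank1, Csmd1, Igkc, Arhgap15, Synpo2, Dock2 and Chst8. Of these, Bank1, Igkc, Dock2 and Arhgap15 are genes of immune cells whose RNA was present in mPRAT adipocyte nuclei at room temperature. From room temperature to cold, mPRAT levels went from 162 to 1.07 CPM for Bank1, from 53.1 to 0.0821 CPM for Igkc, from 139 to 8.71 CPM for Dock2 and from 172 to 10.9 CPM for Arhgap15. The part of immune RNA in these shifts was not tested.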

How the data were processed

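Single-nucleus RNA was measured in 12 libraries, 1 per group. The deposited files hold UMI counts per gene and barcode, not normalized. The authors used Cell Ranger 7.0.0 and the mm10 build, per the submitters' processing notes, and the counting of intronic reads is not given in the sources used here. The lowest UMI total of any barcode was 500. Of 32285 gene identifiers, 32158 were matched to GENCODE M21 (GRCm38) for positions, and 1 list member (Aldoa) had no unique symbol.

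UMI counts of the adipocyte nuclei were summed per library and scaled to CPM. A gene was tested at a mean of at least 5 CPM and called at 2-fold with a pseudocount of 5 CPM. Poisson intervals for levels, conditional binomial intervals for ratios and Clopper-Pearson intervals for shares are exact at 95% (scipy 1.17.1). Floors of 3 UMIs are per library and correspond to 0.2464 CPM in cold mPRAT and 0.03628 CPM in cold iBAT. UMIs are counted molecules, and all intervals cover counting error only. The calling steps were tested on simulated data. Doublet scores (scanpy 1.11.5) marked 2.012% of cold mPRAT and 0% of cold iBAT barcodes at their own threshold, so the caller did not work in cold iBAT and no doublets were removed in the reported values. Removing the highest scores at a fixed rate, which left 2210 and 9761 adipocyte nuclei, was an alternative. Trimmed means of M values (TMM, edgeR 4.0.16) served as an alternative scaling only.

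Genes were named as the 12 with the largest called ratio per direction, the 8 per direction with the largest smallest ratio of 1 sign over all 4 pairs, the 8 per direction with the largest shift with cold, and members of 15 pathway lists, leaving out predicted, clone-named and mitochondrial genes. The same rules were repeated over genes no higher outside the adipocyte nuclei. The nuclei, the rules and the lists were chosen with earlier results of these data known. Genes that the rules chose but that are not reported here were left out of the text. The 18 genes that crossed over were listed after their values were seen. Alternatives changed the pseudocount, the filter, the scaling, the mitochondrial limit, the gate, the depth per nucleus, doublets, subtraction of the immune nuclei's level and the use of Ucp1-positive nuclei.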

Additional observations from a re-analysis of the deposited data

Results flagged for a closer look

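Npr3 differed in opposite directions in the depots between the room temperature and the cold libraries at 6 months. Its log2 change of CPM + 5 was -0.77 in mPRAT and 1.80 in iBAT, and with 1 library per group the difference was not tested.

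In cold mPRAT 66.04% of the barcodes with at least 300 genes exceeded the limit on mitochondrial UMIs, against 2.035% in mPRAT at room temperature. They were not among the nuclei of the main comparison. They did enter the pool outside the adipocyte rule or, where they met that rule, the alternative with no mitochondrial limit. Among them 1064 met the adipocyte rule, with 13367863 UMIs, more than the 12173281 UMIs of the nuclei used. Their Ucp1 level was 110 CPM, against 671 CPM in the nuclei used, and their urothelial or epithelial list summed to 1867 CPM.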

How the results depend on the processing

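With 818 genes higher in cold mPRAT and 165 in cold iBAT (83.2% of calls in mPRAT), the counts depended on several settings, and the cause was not tested unless the setting itself removes genes or nuclei. A pseudocount of 20 CPM gave 370 and 89, and one of 1 CPM gave 248 in iBAT. A filter at 20 CPM gave 374 in mPRAT (73.9% of calls). TMM moved the median of all genes by -0.13 and gave 264 in iBAT (73.4% in mPRAT). No mitochondrial limit moved it by -0.13 and gave 1452 and 736 (66.4%). Subtracting the immune nuclei's level gave 721 and 666 (52.0%), but of only 4397 tested genes against 10269 in the main setting. Nuclei with a Ucp1 UMI, at 2000 UMIs each, gave 345 and 80 (716 and 173 from the reduction to 2000 UMIs alone). Genes no higher outside, an alternative added after the data were seen, gave 207 in mPRAT (60.5%). The set of genes past 2-fold at room temperature also changed with each setting, and genes under the filter in the cold count as not past 2-fold there. In mPRAT, 404 of 800 were still past 2-fold in the cold, 169 of 341 with a pseudocount of 20 CPM, 182 of 395 with the filter at 20 CPM, 66 of 255 in Ucp1-positive nuclei, and 122 of 283 when genes had to be no higher outside at both temperatures (173 when at room temperature only). In iBAT, 96 of 306 were, 52 of 163 with a pseudocount of 20 CPM, 145 of 379 with TMM, 193 of 301 with no mitochondrial limit, 264 of 1527 after subtraction and 29 of 116 in Ucp1-positive nuclei. The 10 thermogenic genes became 22 with no mitochondrial limit, 12 with TMM and 2 in Ucp1-positive nuclei. They were 7 at 2000 UMIs per nucleus and after subtraction. They were 8 at 5% mitochondrial UMIs, in the stricter gate, without the highest doublet scores and with a pseudocount of 20 CPM. Subtraction reversed the log2 ratios of Hoxd3 (-0.15), Gstm1 (-0.26), Nr2f2 (-0.85), Hoxb3 (-0.59) and Mc2r (-0.24). Those of Upk3a (-0.0035), Upk1b (-0.0035) and Tmprss2 (-0.017) also fell below 0, but so near to it that they show no gap toward iBAT. Ucp1-positive nuclei reversed Ptger3 (-0.13), Esr1 (-0.13), Lgals12 (-0.24) and Rbp4 (-0.11, under the filter there). The ratios of further called genes were 0 after subtraction, among them Pitpnc1, Fabp5, Igf1, Egfr and Cmip. Such a 0 arises where the immune nuclei's level was not below that of the adipocyte nuclei. It cannot separate background from expression by the immune cells. Of 98 called genes that were named or listed, 74 kept their direction after subtraction, 93 of 97 did in Ucp1-positive nuclei, and all 98 did under every other setting run on single genes. Genes whose ratio was 0 or just past it after subtraction count as not kept. Past 2-fold in that direction were 68 after subtraction, 66 of 97 in Ucp1-positive nuclei, 72 with a pseudocount of 20 CPM, 88 with no mitochondrial limit and 93 to 98 under the others. The thermogenic median ranged from -1.58 to -0.27. The depth limits genes under about 5 CPM. No paired analysis was possible because each group has 1 library.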
